A study of Mus musculus with 4 samples.

Results

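Heat shock chaperones are the proteins that fold, refold and hold other proteins in the cytosol and the mitochondria. The 46 genes described here encode heat shock transcription factors, the Hsp70, Hsp110 and Hsp90 families, small heat shock proteins, DNAJ co-chaperones, the cytosolic TRiC chaperonin, the mitochondrial chaperonin and regulators that bind Hsp70 or Hsp90. They were listed by name, with earlier results of these data known. A gene counted as measured when a probe set of the array carried its symbol and no other. By that rule 42 of the 46 were measured, with 51 probe sets, among 22180 named genes and 41345 probe sets in all. Hsf1, Hsp90ab1, Dnaja1 and Stub1 had no such probe set and were not analysed here.

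The cells were 4T1Br, a mouse breast cancer line (written 4T1 in the sample titles) that seeks the brain. They were transduced with lentivirus carrying a control hairpin (shControl, 2 arrays) or a hairpin against YTHDF3 (shYTHDF3, 2 arrays), and both groups were selected with puromycin. YTHDF3 is a cytoplasmic protein that binds N6-methyladenosine in messenger RNA. The labels give no hairpin sequence, and they do not say whether the arrays of a group came from separate cultures. The p-values below may therefore rest on technical spread alone.

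On the log2 scale of the deposited RMA values, Ythdf3 itself was at 8.98 and 8.81 in shControl against 8.21 and 8.16 in shYTHDF3. It fell by 0.71 (SE 0.10, limma adjusted p = 0.0355), and that call was lost without any 1 of the 4 arrays (change of -0.79 to -0.63). Array medians over all probe sets lay between 4.42 and 4.47. Of the epithelial markers, 6 of 8 were above the background level of log2 4.28, the 95th percentile of olfactory receptor probe sets. Krt8 and Krt18 averaged 10.26 and 10.79, while Epcam and Krt14 lay under the background. Among markers of other cells, 1 of 5 for leukocytes (Cd68), 6 of 6 for fibroblasts, 1 of 4 for endothelium and 3 of 6 for neurons and glia were above it. Cd68, Cdh5, Rbfox3, Mbp and Map2 averaged 7.08, 4.34, 5.39, 5.16 and 6.89. Ptprc, Cd3e, Itgam, Lyz2, Pecam1, Kdr, Tek, Gfap, Aqp4 and Snap25 lay under the background. The summed fibroblast marker level was log2 9.94 to 10.004 in shControl and 9.27 to 9.29 in shYTHDF3, the leukocyte sum 7.67 to 7.93 and 7.26 to 7.29, the neural sum 7.68 to 7.78 and 8.08 to 8.10, and the epithelial sum 11.39 to 11.51 and 11.86 to 11.94. Each sum follows its brightest genes and need not reflect a whole cell type. From shControl to shYTHDF3, Cd68 averaged 7.43 and 6.72, Map2 6.48 and 7.30, Dcn 7.34 and 4.68, and Pdgfra 9.48 and 8.87. Some markers went against their sum, among them Col1a1 (5.16 and 5.26), Pdgfrb (5.21 and 5.42), Rbfox3 (5.41 and 5.36) and Krt19 (6.75 and 6.22). The sums moved between the same groups as the chaperones, and their part in the results below was not tested.

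Cytosolic chaperones work as a relay. Hsp70 proteins bind exposed hydrophobic stretches of a client in cycles driven by ATP, DNAJ proteins deliver the client and start ATP hydrolysis, and nucleotide exchange factors such as the Hsp110 and BAG proteins release it. Stip1 then bridges Hsp70 to Hsp90, which matures kinases and steroid receptors, while the ring-shaped TRiC complex folds actin and tubulin. Under proteotoxic stress the factor HSF1 binds repeated GAA units, the heat shock element, in front of many of these genes, and tumour cells often keep the system active without heat.

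Most of the chaperone transcripts were slightly lower in shYTHDF3, and no single gene passed the test. Of the 42 genes, 41 were above background and tested; limma called 0 of them, with 9 lower and 0 higher at an unadjusted p under 0.05. Over all 13056 genes tested, 2.73% were called (1.45% lower, 1.28% higher), and 10.4% were lower and 12.2% higher at an unadjusted p under 0.05. The change was below 0 in 35 of the 41 chaperone genes, against 48.9% of all genes tested. In 27 of the 41 both shYTHDF3 values lay below both shControl values, against 25.7% of all genes, and in 3 both lay above, against 28.3%. The median change was log2 -0.14, against 0.01 over all genes tested, a small difference. Because the list was chosen with earlier results of these data known, no test was run over it. Arrays read RNA from many cells at once, so fewer cells with a transcript and less of it per cell cannot be told apart.

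**Figure D1:**
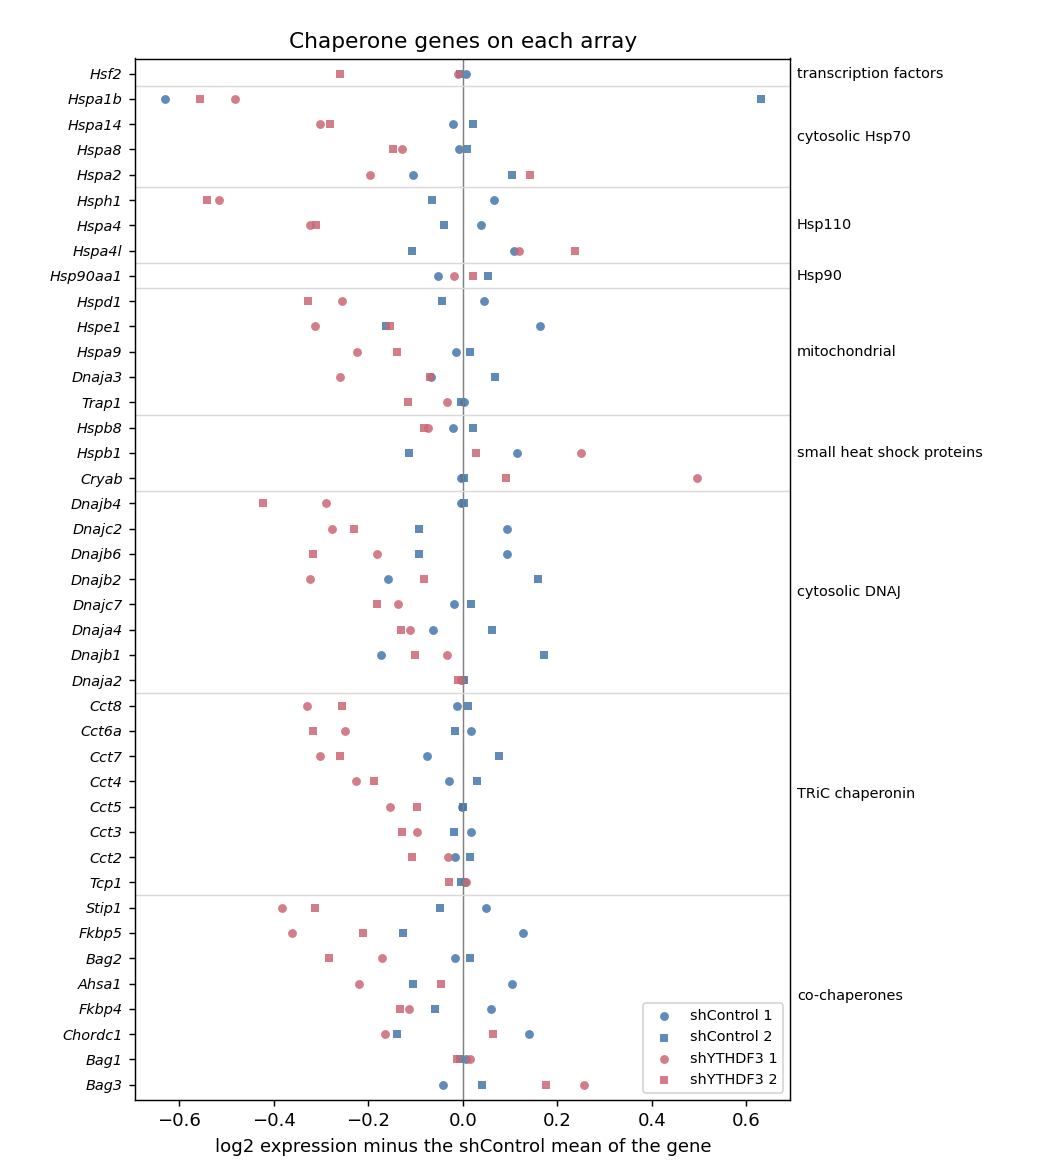
Log2 expression of the 41 tested chaperone genes on each of the 4 arrays, drawn as the distance from the gene's shControl mean (horizontal axis, log2) and grouped by role. Blue points are shControl and red points shYTHDF3 (circles array 1, squares array 2); most red points lie left of 0, while the shControl points of Hspa1b lie far apart.

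For the chaperone genes both shYTHDF3 arrays were low. The shYTHDF3 1 array gave the lowest value for 16 of the 41 genes and shYTHDF3 2 for 18, whereas shControl 1 did so for 5 and shControl 2 for 2. Over all genes tested, the lowest value came from shYTHDF3 1 for 20.2%, shYTHDF3 2 for 26.9%, shControl 1 for 23.7% and shControl 2 for 29.1%. The median distance of the chaperone genes from their own mean over the arrays was 0.07 on shControl 1, 0.06 on shControl 2, -0.09 on shYTHDF3 1 and -0.07 on shYTHDF3 2. Over all genes tested the same medians lay between -0.01 and 0.01. Many chaperone probe sets are bright, and bright probe sets were lower somewhat more often in general. Of the 633 tested genes with a mean over 10, 38.9% had both shYTHDF3 values below both shControl values and the median change was -0.04; among the 11 chaperone genes in that range 10 were lower without overlap and the median was -0.18. In the range from 8 to 10 it was 9 of 14 chaperone genes against 34.0% of 2941 genes, and from 6 to 8 it was 6 of 12 against 24.9% of 4743.

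**Figure D2:**
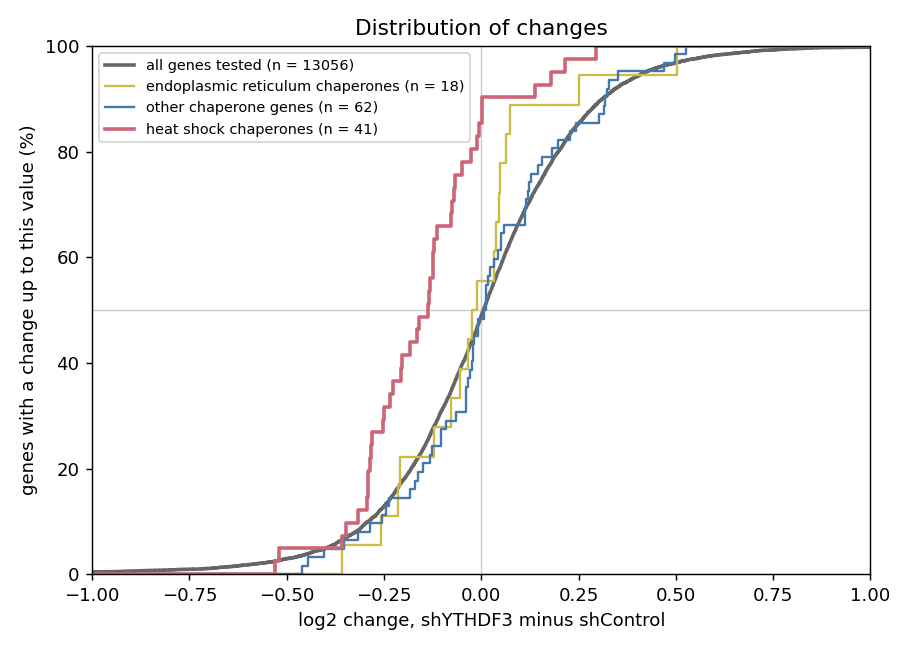
Cumulative share of genes (vertical axis, percent) with a log2 change, shYTHDF3 minus shControl, up to the value on the horizontal axis, cut at -1 and 1. The curve of the 41 heat shock chaperones lies to the left of the others around its median of -0.14, while those of the 62 other chaperone genes and the 18 endoplasmic reticulum chaperones cross 50% near the 13056 genes tested.

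Related genes outside the list had medians near 0. For comparison with their counts, 10.4% of all genes tested were lower and 12.2% higher at an unadjusted p under 0.05. Without overlap, 25.7% were lower and 28.3% higher. Of 62 other chaperone and co-chaperone genes tested (further DNAJ proteins, prefoldins, Hsp90 partners and mitochondrial proteases among them), limma called 0, with 6 lower and 10 higher at an unadjusted p under 0.05; their median was 0.01, with 14 lower and 17 higher without overlap. The widest difference there was that of Hspb7, a small heat shock protein gene of muscle, at 0.53 (SE 0.23, limma adjusted p = 0.240). Hspb7 lay near the background of log2 4.28, reading 3.98 and 4.59 in shControl against 4.63 and 4.99 in shYTHDF3. Hsbp1 came next, at 0.50 (SE 0.09, limma adjusted p = 0.0544). Hsbp1 encodes a small protein that binds the trimer form of HSF1; it read 9.15 and 9.19 in shControl against 9.71 and 9.63 in shYTHDF3, so its groups did not overlap. Of 18 chaperones of the endoplasmic reticulum limma called 0 (2 lower and 2 higher at an unadjusted p under 0.05), with a median of -0.02. Sil1, an exchange factor for the reticulum's Hsp70, differed by 0.50 and P4hb, a disulfide isomerase, by -0.36. The difference between these lists was not tested.

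The letters of the heat shock element were searched in the RefSeq windows from 250 bases before to 50 after each annotated start (GRCm38.p6). The motif was GAANNTTCNNGAA, with its reverse complement TTCNNGAANNTTC, so both strands were read. It was found in 5 of the 36 measured members that had a window (13.9%). The share was 0.662% of all 27025 genes with a window and 0.538% of the 10216 tested ones. The members were listed as heat shock genes, so this difference says nothing about shYTHDF3. A match is a run of letters, not a bound site. Only exact matches inside these windows were counted, so a member without one was not shown to lack an element. The stretches that hold it are printed because they show which of these genes carry the full element close to a start; capitals mark the element, and overlapping matches are joined.
Hsph1, chr5:149636280-149636308, minus strand: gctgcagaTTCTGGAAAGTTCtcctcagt
Hspd1, chr1:55088053-55088082, minus strand: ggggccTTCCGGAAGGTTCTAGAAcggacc
Hspe1, chr1:55088053-55088082, plus strand: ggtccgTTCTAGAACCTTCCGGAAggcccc
Dnajb6, chr5:29735844-29735872, plus strand: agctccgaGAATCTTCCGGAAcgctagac
Chordc1, chr9:18292260-18292288, plus strand: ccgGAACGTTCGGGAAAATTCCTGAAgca
The Hspd1 and Hspe1 lines are the same 30 bases read from opposite strands, since the 2 genes are transcribed from opposite strands. Counted from the Hspe1 start the element spans bases -89 to -72, and from an Hspd1 start -144 to -127. In Hsph1 it lies past both annotated starts, at bases 16 to 28 counted from the nearer as 1.

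All 5 genes with the element had a change below 0, with a median of -0.25, and 3 were lower without overlap. Of the 30 tested members whose windows lacked it, 26 had a change below 0, the median was -0.13 and 20 were lower without overlap. The tested members Hspa8, Hspa9, Hsp90aa1, Cct4, Dnajc2 and Cryab had no window and fall in neither group. Their changes ran from -0.25 (Dnajc2) to 0.29 (Cryab). Over all genes tested 48.9% had a change below 0 and 25.7% were lower without overlap. Chordc1, which holds the longest run, differed by -0.05, and its groups overlapped. Hspd1 and Hspe1 share the same element. The difference between members with and without the element was not tested.

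For the 3 tested genes with the largest absolute changes, the 120 bases before the outermost start follow, on the gene's own strand. They are shown because these genes carry the widest differences of the list, and capitals mark a pair of element units (GAANNTTC or TTCNNGAA, each its own reverse complement). Such a pair occurs in the windows of 17.0% of all genes, 13.6% of the genes tested and 16 of the 36 members (44.4%). That difference too says nothing about shYTHDF3.
Hsph1, chr5:149636337-149636456, minus strand: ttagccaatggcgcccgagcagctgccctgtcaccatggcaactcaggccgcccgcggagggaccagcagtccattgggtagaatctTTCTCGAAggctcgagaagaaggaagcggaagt
Hspa1b, chr17:34959239-34959358, minus strand: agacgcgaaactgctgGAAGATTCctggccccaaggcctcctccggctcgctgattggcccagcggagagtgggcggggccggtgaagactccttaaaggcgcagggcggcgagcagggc
Dnajb4, chr3:152210084-152210203, minus strand: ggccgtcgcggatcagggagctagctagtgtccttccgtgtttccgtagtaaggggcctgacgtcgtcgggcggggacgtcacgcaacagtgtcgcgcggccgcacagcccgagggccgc
Hsph1 and Hspa1b hold 1 pair each in this stretch, and Dnajb4 holds none in it, although its windows hold a pair outside the stretch.

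Hsf2, a heat shock factor that works beside HSF1, read 7.26 and 7.25 in shControl against 7.24 and 6.99 in shYTHDF3. Its change of -0.14 (SE 0.11, limma adjusted p = 0.531) rested on the shYTHDF3 2 array, since the gap between the groups was 0.0042.

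Hsph1, an Hsp110 protein that exchanges nucleotide on Hsp70 and helps to dissolve aggregates, showed the largest change of the list. It read 9.93 and 9.80 in shControl against 9.35 and 9.33 in shYTHDF3. Both shYTHDF3 values were lower, by a gap of 0.45 that exceeded the spread within either group. The log2 change was -0.53 (SE 0.10, 95% interval -0.77 to -0.29), which left 69.3% of the shControl level, and it missed the threshold (limma adjusted p = 0.0537). Its call depended on the variance model and the filter: the limma adjusted p was 0.00251 with an intensity trend, 0.0465 with the filter set at the overall median and 0.0496 after repeated quantile normalization, but 0.129 without a filter on dim probe sets. Hspa4, a constitutive Hsp110 protein, read 11.10 and 11.02 against 10.74 and 10.75. The change was -0.32 (SE 0.09, limma adjusted p = 0.125), again without overlap. Hspa4l, their testis-rich relative, pointed the other way, at 8.12 and 7.91 in shControl against 8.14 and 8.25 in shYTHDF3, a change of 0.18 (SE 0.11, limma adjusted p = 0.409).

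All 4 cytosolic Hsp70 genes tested had changes below 0, and 2 of them were lower without overlap, against 48.9% and 25.7% of all genes tested. The signs of Hspa1b, Hspa8 and Hspa2 turned under another setting. Hspa1b, a stress-inducible Hsp70, read 6.27 and 7.53 in shControl against 6.42 and 6.35 in shYTHDF3. The control arrays stood far apart, with both shYTHDF3 arrays between them. Its change of -0.52 (SE 0.38, limma adjusted p = 0.469) became 0.11 without the shControl 2 array, so its direction rests on that array. Hspa1a, a near-identical copy beside it, read 3.05 and 2.86 against 2.62 and 2.65, under the background on every array, and was not tested. Because the coding sequences of these copies are almost the same, which of them a probe set reports is uncertain.

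Hspa8, the constitutive Hsc70, read 12.36 and 12.38 in shControl against 12.24 and 12.22 in shYTHDF3 on its brightest probe set, a change of -0.14 (SE 0.09, limma adjusted p = 0.414). Its other 3 probe sets differed by 0.03, 0.29 and 0.32, so the direction for Hspa8 depended on the probe set; the gene has many processed copies in the genome. Hspa14, a ribosome-associated Hsp70, read 7.78 and 7.82 against 7.50 and 7.52. Its change of -0.29 (SE 0.09, limma adjusted p = 0.141) was well over the spread of either group. Hspa2, the Hsp70 of male germ cells, differed by -0.03 with overlapping groups, and by 0.14 without the shYTHDF3 1 array.

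Hsp90aa1, the inducible cytosolic Hsp90, had a change near 0. It read 8.21 and 8.32 in shControl against 8.25 and 8.29 in shYTHDF3, with a 95% interval of the change from -0.23 to 0.23, which also holds the chaperone median of -0.14. Of the 3 small heat shock proteins, which hold unfolded clients without ATP, 1 was lower and 1 higher without overlap and 1 overlapped. Over all genes tested 25.7% were lower and 28.3% higher without overlap. Cryab, alpha-B-crystallin, read 7.05 and 7.06 against 7.55 and 7.14, and most of its change of 0.29 (SE 0.15, limma adjusted p = 0.304) came from the shYTHDF3 1 array. Hspb1, known as Hsp25 in mice, differed by 0.14 with overlapping groups, while a second Hspb1 probe set under the background differed by -0.39 and the mean of both by -0.13. Hspb8, the partner of Bag3, read 8.77 and 8.81 against 8.71 on both shYTHDF3 arrays, a change of -0.08.

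The 5 mitochondrial genes all had changes below 0, from -0.29 to -0.07, and 4 were lower without overlap. The gap between the groups was only 0.0012 for Dnaja3 and 0.031 for Trap1. Over all genes tested the shares were 48.9% and 25.7% (38.9% without overlap over a mean of 10, where Hspd1 and Hspa9 lie). Hspd1, the Hsp60 ring of the mitochondrial chaperonin, read 10.99 and 10.90 in shControl against 10.69 and 10.62 in shYTHDF3, a change of -0.29 (SE 0.09, limma adjusted p = 0.153). Hspe1, its lid Hsp10, which shares the promoter region printed above, differed by -0.23 (SE 0.14), but its groups overlapped because shControl 2 read 6.64 and shYTHDF3 2 read 6.65. Hspa9, the mitochondrial Hsp70 that pulls in imported proteins, read 11.82 and 11.85 against 11.61 and 11.70, a change of -0.18 (SE 0.09, limma adjusted p = 0.304). Trap1, the mitochondrial Hsp90, differed by -0.07. Dnaja3, a mitochondrial DNAJ protein, differed by -0.16 on the probe set used, but by 0.31 and 0.07 on its dimmer ones, so its direction was not settled.

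The TRiC chaperonin has a ring of related subunits, and all 8 genes had changes below 0. That compares with 48.9% of all genes tested and 60.0% of those with a mean over 10. In 7 of the 8 the shYTHDF3 values were lower without overlap, against 25.7% of all genes tested and 38.9% of those with a mean over 10. Cct8 read 10.65 and 10.68 in shControl against 10.34 and 10.41 in shYTHDF3, a change of -0.29 (SE 0.09, limma adjusted p = 0.144). Cct6a read 11.32 and 11.29 against 11.06 and 10.99, and its second probe set differed by -0.12 with overlap. Cct7 read 9.50 and 9.65 against 9.27 and 9.31. These 3 subunits differed by -0.29 to -0.28, and all 3 were below 0 at an unadjusted p under 0.05. Of all genes tested, 10.4% were lower at that threshold. Cct4, Cct5, Cct3 and Cct2 differed by -0.21, -0.12, -0.11 and -0.07. Tcp1, the subunit that names the complex, read 11.41 and 11.40 against 11.41 and 11.38, a change of -0.01 with a 95% interval from -0.23 to 0.21. The complex assembles from equal numbers of its subunits, and the differences between their changes were not tested.

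**Figure D3:**
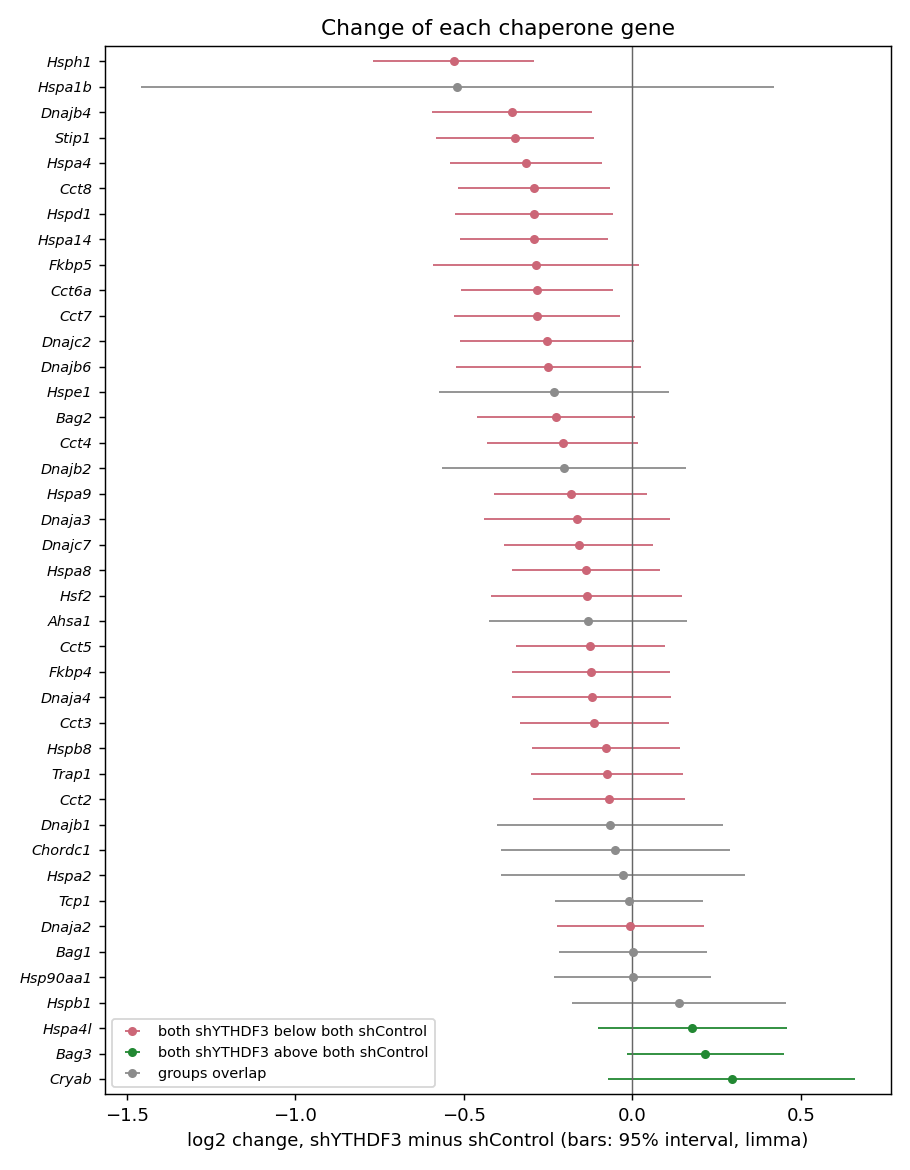
Log2 change, shYTHDF3 minus shControl (horizontal axis), of the 41 tested chaperone genes in order of size, with 95% intervals from limma as bars. Red marks genes with both shYTHDF3 values below both shControl values (27), green the reverse (3) and grey overlapping groups (11); the intervals of 9 genes exclude 0 before adjustment.

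The 8 measured cytosolic DNAJ genes all had changes below 0, with a median of -0.18, and 6 were lower without overlap (Dnaja2 by a gap of 0.0014), against 48.9% and 25.7% of all genes tested. Dnajb4, a cytosolic partner of Hsp70, read 5.78 on both shControl arrays and 5.49 and 5.36 in shYTHDF3, a change of -0.36 (SE 0.10, limma adjusted p = 0.111). Dnajc2, which works with Hspa14 at the ribosome, read 9.18 and 8.99 against 8.81 and 8.86, a change of -0.25 (SE 0.10, limma adjusted p = 0.228). Dnajb6, a suppressor of protein aggregation, read 6.91 and 6.72 against 6.63 and 6.49, also -0.25. Dnajc7, which carries TPR repeats and binds both Hsp70 and Hsp90, differed by -0.16, and Dnaja4 by -0.12. Dnajb1, the classic heat-inducible Hsp40, read 6.62 and 6.97 against 6.76 and 6.70; its groups overlapped and its change was -0.07. Dnajb2 differed by -0.20 with overlap. Dnaja2 differed by only -0.01, so its lack of overlap, at 4 values between 9.89 and 9.91, carries no size.

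Among the co-chaperones, Stip1, the Hsp70-Hsp90 adaptor also called Hop, had the widest difference. It read 10.68 and 10.58 in shControl against 10.25 and 10.32 in shYTHDF3, a change of -0.35 (SE 0.10, limma adjusted p = 0.113) that left 78.5% of the shControl level. Fkbp5, an Hsp90-binding immunophilin induced by glucocorticoids, read 8.15 and 7.89 against 7.66 and 7.81, a change of -0.29 (SE 0.12, limma adjusted p = 0.243). Its relative Fkbp4 differed by -0.12. Bag2, which blocks the ubiquitin ligase that works with Hsp70, read 7.51 and 7.54 against 7.35 and 7.24, a change of -0.23 (SE 0.09, limma adjusted p = 0.231). Bag3, which steers Hsp70 clients to autophagy, pointed up: it read 8.04 and 8.12 against 8.33 and 8.26, a change of 0.22 (SE 0.09, limma adjusted p = 0.247) without overlap. Bag1 read 7.48 and 7.47 against 7.49 and 7.46, and its 95% interval ran from -0.22 to 0.22. Ahsa1, the activator of the Hsp90 ATPase, and Chordc1, an Hsp90 partner, differed by -0.13 and -0.05 with overlapping groups.

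**Figure D4:**
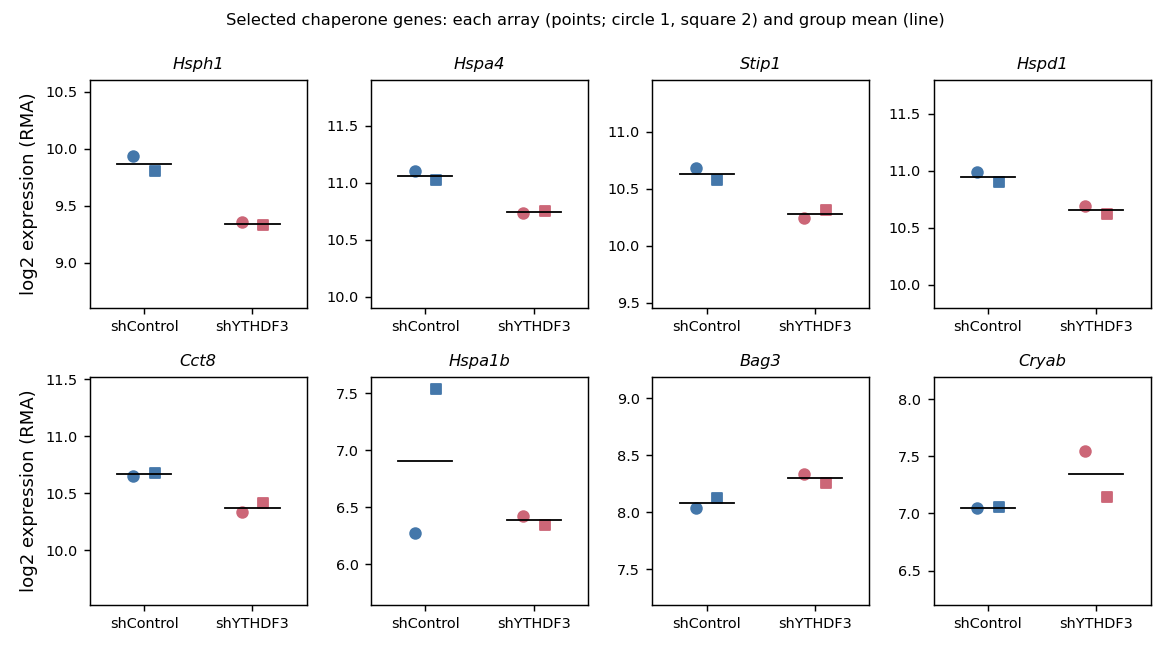
Log2 RMA expression (vertical axes, each spanning 2 log2 units) of 8 chaperone genes on the shControl (blue) and shYTHDF3 (red) arrays; circles are array 1, squares array 2 and lines group means. Hsph1, Hspa4, Stip1, Hspd1 and Cct8 are lower on both shYTHDF3 arrays, Bag3 and Cryab are higher on both, and the shControl arrays of Hspa1b lie on either side of the shYTHDF3 arrays.

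The 95% interval lay within -1 and 1 for 40 of the 41 genes, so a 2-fold difference was outside the interval of every tested member but Hspa1b, and it lay within -0.5 and 0.5 for 25. With an intensity trend in limma's variance model 7 members were called lower (Hsph1, Hspa4, Stip1, Hspd1, Cct6a, Cct7 and Cct8) and 0 higher. That model called 5.33% of all genes tested lower. The 7 members are bright, averaging from log2 9.43 (Cct7) to 11.17 (Cct6a), while the 5.33% covers genes of every tested level. The share called at like level was not computed. With robust estimation added the same 7 were called, against 5.44% of all genes. Hsph1 was the only member called with the filter at the overall median (1.95% of all genes lower) and after repeated quantile normalization (1.62%).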

How the data were processed

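Expression was measured on 4 Affymetrix arrays, 2 shControl and 2 shYTHDF3. The deposited values are log2 expression per probe set, which the authors obtained with RMA, per the submitters' processing notes. Neither its version nor the log base is given in the sources used here; log2 is RMA's scale and fits the range. RMA equalises the arrays, so a shift of most genes would not be seen. Of 41345 probe sets, 23521 had 1 symbol in the platform annotation, 1814 several and 16010 none; 23328 took their RefSeq symbol through the Entrez identifier. A gene's value is its probe set with the highest mean. The 13056 genes above the 95th percentile of 1108 olfactory receptor probe sets were tested with limma 3.58.1 (lmFit, eBayes) under R 4.3.3. Tests were two-sided, p-values were adjusted by Benjamini-Hochberg over all these genes, and the threshold was 0.05; 9124 were not tested. The number of arrays limits precision; none held the same values as another. On 20 simulated sets with 200 of the 13056 genes changed, a log2 change of 0.5 was recovered for 2.05% of the changed genes. One of log2 1 was recovered for 73.9%. Recovery depends on the share of genes changed, which is not known for these data. Members and lists were chosen with earlier results of these data known. Genes named were all members, Ythdf3, the 2 other chaperone genes and the 2 reticulum chaperones with the largest absolute change (the rule, with none past the threshold) and the marker genes. Alternatives were other filters, variance models, scalings and probe set rules, the replicate number as a block, and leaving out each array. Plots used matplotlib 3.10.9 (Python 3.11.15).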

Additional observations from a re-analysis of the deposited data

How the results depend on the processing

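The chaperone median kept its sign, at -0.17 to -0.12, under the 12 alternatives. The count of chaperone genes called lower was 0 in the main fit, 1 with the filter at the median or after repeated quantile normalization, and 7 with an intensity trend, with or without robust estimation; 0 were called higher. Among the other chaperone genes 4 were lower and 2 higher with the trend (4 and 3 with robust estimation). After repeated quantile normalization 1 was lower and 1 higher, and 1 was higher with the filter at the median or a common median. Of all genes tested, the trend called 5.33% lower and 5.59% higher, and robust estimation 5.44% and 5.78%. Repeated quantile normalization called 1.62% and 1.57%, the filter at the median 1.95% and 1.97%, and a common median 1.49% and 1.64%. Over all genes, 189 lower and 167 higher became 29 and 14 without a filter, 696 and 730 with the trend, 710 and 755 with robust estimation, and 0 to 10 and 0 to 2 with 1 array left out, where the lone array was assumed to vary like the others and fewer degrees of freedom remained. With the replicate number as a block 36 were lower and 15 higher, and 0 chaperone genes were called. Same-numbered arrays did not deviate together (r = -0.066 across genes). That cannot show whether equal numbers shared a culture, which the labels do not state. The Ythdf3 call was lost without a filter, under the block and without any 1 array.

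The sign turned in 11 of 41 members. With the mean of all probe sets Hspa8 was at 0.124, Dnaja3 at 0.0722 and Hspb1 at -0.128. After repeated quantile normalization Dnaja2 was at 0.0289, Tcp1 at 0.0219 and Bag1 at -0.0168, and with a common median Dnaja2 was at 0.0136 and Tcp1 at 0.0093. With 1 array left out, the change ran from -1.15 to 0.11 for Hspa1b, -0.196 to 0.142 for Hspa2, -0.0518 to 0.0549 for Hsp90aa1, -0.24 to 0.106 for Dnajb1, -0.0293 to 0.0073 for Tcp1, -0.0127 to 0.0153 for Bag1 and -0.19 to 0.0888 for Chordc1. The cause was not tested. In the 30 members whose groups did not overlap, leaving out an array cannot turn the sign.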
